A study of Mus musculus with 12 samples.

Results

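Macrophages of the mammary ducts were compared between pregnancy and the virgin state. The comparison took every library whose label gave one of these stages, 6 of the 12 in the series: 3 Pregnant libraries, from day 16.5 of pregnancy, and 3 Virgin libraries. All were labelled as ductal macrophages from the mammary gland of female mice on a C57BL/6 background. No transgene, deletion or drug is named for any group. Each library came from 2000 freshly sorted cells and was made with the SMART-Seq v4 kit, which copies whole transcripts from very small RNA inputs, and all libraries shared 1 sequencing run. The replicates are described as biological, while the sources used here do not give the sorting gate, the age of the mice or any pooling of animals. The other stages, lactating and 1 month after weaning, had 3 libraries each and shared the fit.

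Ductal macrophages live within the mammary epithelium, in contact with luminal and basal cells, and are known for sampling the duct and clearing dying cells. In late pregnancy the ducts carry growing alveoli that begin to make milk proteins. Immediate early genes such as Fos and Egr1 encode short-lived regulators that are switched on without new protein synthesis after many stimuli, and tissue dissociation is known to induce them as well. NF-kB is held in the cytoplasm by inhibitors such as IkB-alpha, and its own targets include those inhibitors, cytokines and chemokines.

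Total gene counts were 8425970 to 21204704 in Pregnant and 8704918 to 12709036 in Virgin libraries, and 13329 to 13790 against 11295 to 13207 genes had at least 1 count. Levels are in CPM, which divides counts by TMM-scaled library sizes, so a count of 3 equals 0.124 to 0.344 CPM in Pregnant and 0.219 to 0.344 CPM in Virgin libraries. Across genes, mean correlations with the libraries of the same stage were 0.934 to 0.945 in Pregnant and 0.851 to 0.868 in Virgin. Virgin 1 correlated at 0.881 with the Pregnant libraries, above its 0.868 with the other Virgin libraries. All 28 macrophage identity genes were counted in both stages. They summed to 99712 to 124054 CPM in Pregnant and 106539 to 114561 CPM in Virgin libraries. Csf1r, the receptor for the macrophage growth factor CSF-1, had 1377, 1287 and 1146 CPM in the Pregnant libraries, against 1033, 1051 and 1070.2 CPM in the Virgin libraries. C1qa, a complement C1q subunit, had 2286, 2072 and 2236 CPM in the Pregnant libraries, against 1689, 1621 and 1423 CPM in the Virgin libraries. Csf1r and C1qa were higher in every Pregnant library, but neither was called by edgeR. Over the 28 identity genes, 12 log2 fold changes were above 0 and 16 below. Adgre1 and Cx3cr1, given further on, were lower in every Pregnant library, and neither was called. Of 18 neutrophil and mast cell genes, 12 were at 0 in all 6 libraries, among them S100a9 and Ly6g. The list summed to 56.5 to 101 CPM in Pregnant and 64.7 to 130 CPM in Virgin libraries. T and NK cell genes summed to 170 to 231 CPM in Pregnant and 214 to 405 CPM in Virgin libraries. For B and plasma cell genes the sums were 195 to 252 CPM in Pregnant and 268 to 459 CPM in Virgin libraries. Dendritic cell markers summed higher, to 1427 to 1615 CPM in Pregnant and 1384 to 1551 CPM in Virgin libraries. Of 18 such markers, 16 had a count in Pregnant and 18 in Virgin. Stromal macrophage markers summed to 2688 to 5481 CPM in Pregnant and 3959 to 5437 CPM in Virgin libraries. Epithelial and stromal genes were uneven among the Virgin libraries: the keratin gene Krt18 reached 223 CPM in Virgin 3 and at most 49.5 CPM elsewhere, and the collagen gene Col1a2 reached 99.5 CPM in Virgin 2, 11.4 CPM in Virgin 3 and at most 0.667 CPM in the other 4 libraries. Of 19 endothelial genes, 6 were at 0 in all Pregnant libraries and 1 in all Virgin libraries, and they summed to 3.89 to 18.9 CPM in Pregnant and 38.2 to 186 CPM in Virgin libraries. In bulk libraries, fewer cells of a type and less RNA per cell cannot be told apart.

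In edgeR's quasi-likelihood test, 167 of 12672 genes tested changed at an adjusted p under 0.05 (1.32%). Of these, 56 were higher in pregnancy (0.442%) and 111 were lower (0.876%). Called genes that fell included regulators of the early response, NF-kB inhibitors, chemokines and several surface receptors. Those that rose included lysozymes, complement factors, lysosomal enzymes, mitotic genes and milk proteins. All 167 had no overlap between the 3 Pregnant and the 3 Virgin libraries, which held for 3071 genes in all (24.2%). The median absolute log2 fold change was 2.17 among the rises and 1.69 among the falls. Among the 111 falls, Virgin 1 was the Virgin library nearest to the Pregnant ones in 76, and among the 56 rises in 34. With 1 library left out, fewer of the calls remained: 51, 39 and 51 of the 167 without Pregnant replicate 1, 2 or 3, and 103, 47 and 50 without Virgin replicate 1, 2 or 3. The call held in each of these 6 fits for 28 genes. Lactating replicate 3 shares the fit and stood apart, with 10178 genes detected, the fewest of the 12 libraries, and a mean correlation of 0.756 with its stage. Without it 438 of 13426 genes were called (3.26%), 158 higher (1.18%) and 280 lower (2.09%), and they included all 167.

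**Figure D1:**
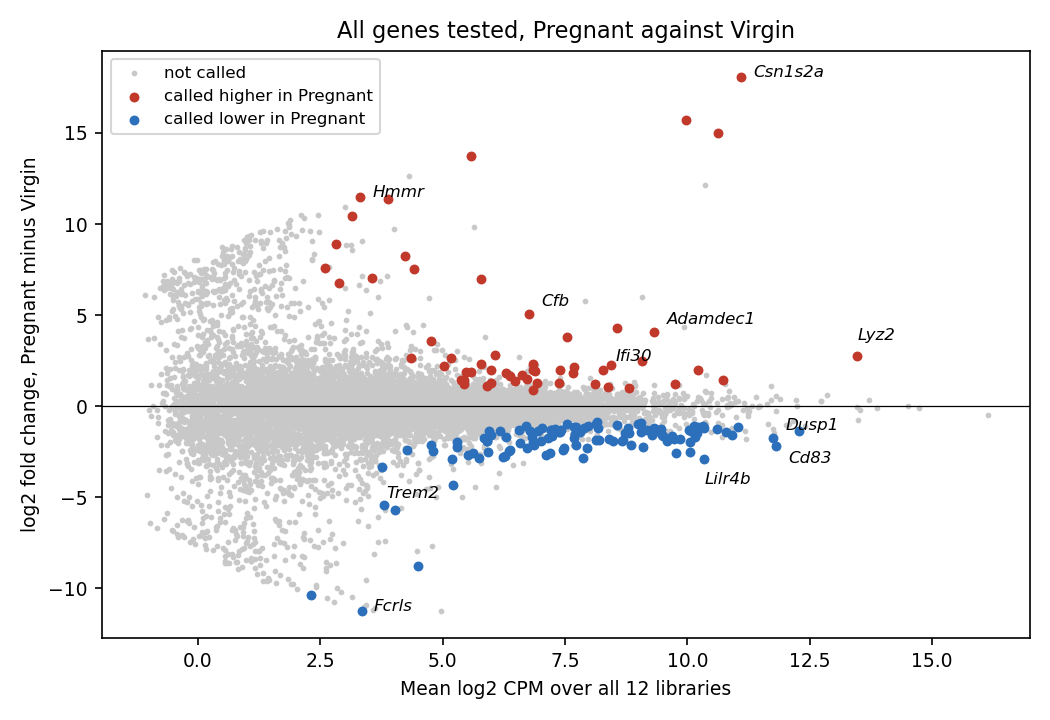
Each point is a gene tested, with its mean log2 CPM over all 12 libraries on the x axis and the log2 fold change of Pregnant over Virgin on the y axis. Red points are the 56 genes called higher in Pregnant and blue points the 111 called lower. Most called falls lie between -1 and -3 on the log2 scale, while the rises reach the milk gene Csn1s2a at the top.

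Among early transcription factor genes, the calls were mostly lower in pregnancy. Of 37 tested, 13 fell and 1 rose (37.8% called, beside 1.32% of all genes). The median log2 fold change was -1.42, beside 0.03 over all genes. Groups did not overlap for 27 that were lower and 1 that was higher, against 10.7% and 13.6% of all genes. Fos, a subunit of the AP-1 transcription factor, had 610.3, 438 and 547 CPM in the Pregnant libraries, against 1375, 1731 and 1979 CPM in the Virgin libraries (log2 fold change -1.67 ± 0.22, edgeR adjusted p = 0.00681). Egr1, a zinc finger factor of the immediate early response, had 318, 230.2 and 237 CPM in the Pregnant libraries, against 977, 1797 and 1797 CPM in the Virgin libraries (log2 fold change -2.54 ± 0.35, edgeR adjusted p = 0.00702). In both genes Virgin 1 was the lowest Virgin library and still lay well above every Pregnant library. Btg2, an antiproliferative gene induced by p53 and by growth factors, had 214, 137 and 161 CPM in Pregnant and 656, 719 and 849 CPM in Virgin libraries (log2 fold change -2.12 ± 0.23, edgeR adjusted p = 0.00507). Klf6, a Krüppel-like factor, had 398, 383 and 422 CPM in Pregnant and 1059, 1446 and 1639 CPM in Virgin libraries (log2 fold change -1.78 ± 0.20, edgeR adjusted p = 0.00507). The Pregnant libraries lay close together for Klf6, while the Virgin libraries spread further. Id2, an inhibitor of helix-loop-helix factors, had 381, 363 and 214 CPM in the Pregnant libraries, against 887, 1062 and 923 CPM in the Virgin libraries (log2 fold change -1.58 ± 0.24, edgeR adjusted p = 0.00990), and its relative Id3 was lower still, at 5.78, 10.1 and 4.85 CPM in Pregnant and 48.7, 26.4 and 80.6 CPM in Virgin libraries (log2 fold change -2.91 ± 0.46). Nr4a1, an orphan nuclear receptor of the early response, had 78.6, 54.5 and 73.0 CPM in the Pregnant libraries, against 239, 373 and 410.1 CPM in the Virgin libraries (log2 fold change -2.31 ± 0.34, edgeR adjusted p = 0.00854). Ier2, Ier5, Junb, Atf3, Csrnp1 and Cebpb fell too, by 1.11 to 2.31 on the log2 scale. Jun itself did not pass, at 126, 82.6 and 124 CPM in Pregnant and 219, 425 and 503 CPM in Virgin libraries (adjusted p = 0.167), but it fell in the fit without Lactating replicate 3. The exception was Bhlhe40, a repressor of the helix-loop-helix family that limits IL-10 in myeloid cells, which was higher at 231, 219 and 259 CPM in the Pregnant libraries, against 73.4, 52.1 and 74.6 CPM in the Virgin libraries (log2 fold change 1.83 ± 0.21, edgeR adjusted p = 0.00530).

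Among the fits without 1 of the 6 libraries, the number called ran from 8 (without Pregnant replicate 1) to 14 (without Virgin replicate 1). It was 19 of 37 without Lactating replicate 3, beside 3.26% of all genes in that fit. Btg2, Klf6, Fos, Egr1, Id2 and Bhlhe40 kept their call in all 6 fits. The remaining genes lost it in at least 1, with edgeR adjusted p up to 0.231 (Cebpb, without Pregnant replicate 2). The list took 0.644, 0.530 and 0.618% of counts in the Pregnant libraries, against 1.21, 1.70 and 1.86% in the Virgin libraries. The exact permutation test over the 6 libraries, two-sided, gave p = 0.1, the smallest it can give. Heat shock chaperone genes, which respond to proteotoxic stress, are shown beside them. Of 22 tested, 0 were called by edgeR (beside 1.32% of all genes), and the median log2 fold change was -0.11. Groups did not overlap for 3 of the 22 that were higher and 5 that were lower, against 13.6% and 10.7% of all genes. Their share was 0.620, 0.722 and 0.898% of counts in the Pregnant libraries, against 0.696, 0.767 and 0.784% in the Virgin libraries. Without Lactating replicate 3, 2 of 22 fell, Hspa1a and Dnajb4, beside 3.26% of all genes called in that fit. The sources used here do not say how tissue was dissociated before sorting, and the part of dissociation in the early genes was not tested.

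**Figure D2:**
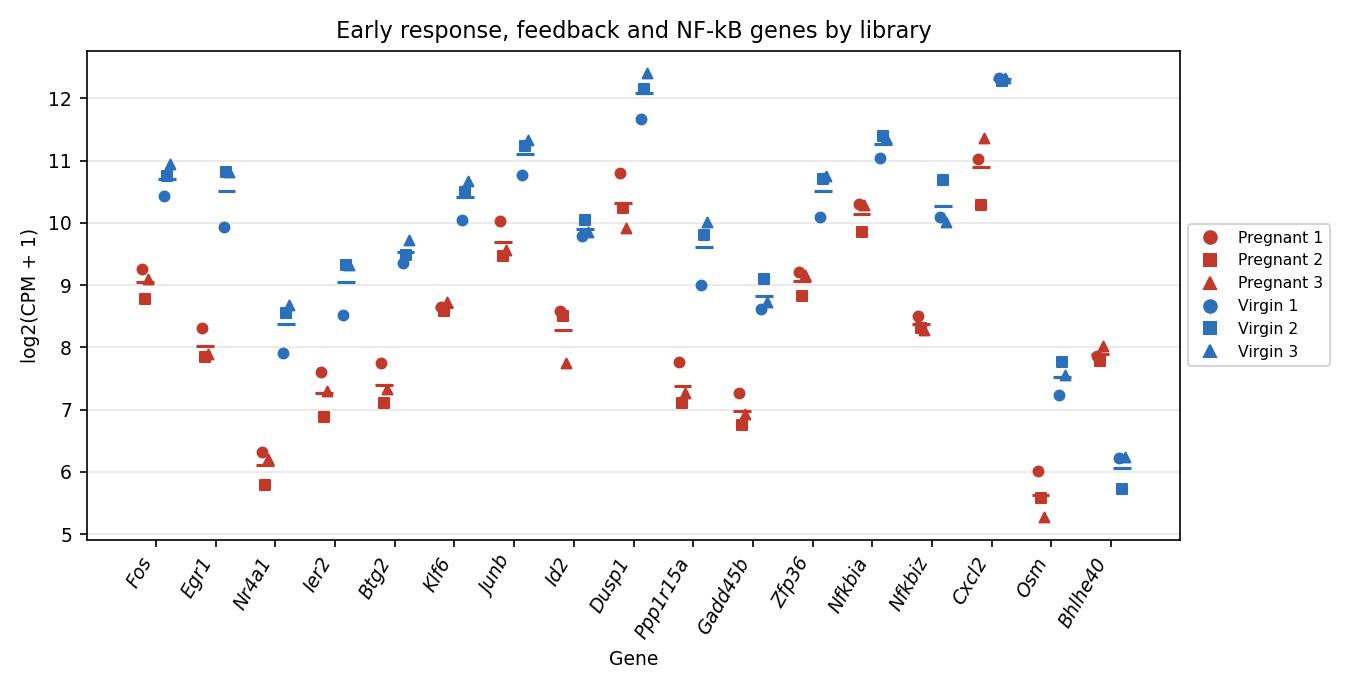
Early response, feedback and NF-kB genes by library, as log2(CPM + 1). Red symbols are the 3 Pregnant libraries and blue symbols the 3 Virgin libraries of each gene, with a bar at the mean. Every gene shown has its Pregnant libraries below all Virgin libraries except Bhlhe40, where they lie above.

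The list of signalling feedback regulators, with stress and cell cycle genes among them, was called in 1 direction. In it 9 of 31 were lower (29.0%, beside 1.32% of all genes), none was called higher, and the median log2 fold change was -1.24. Dusp1, the MAP kinase phosphatase MKP-1, had 1782, 1209 and 969.6 CPM in the Pregnant libraries, against 3263, 4572 and 5441 CPM in the Virgin libraries (log2 fold change -1.74 ± 0.32, edgeR adjusted p = 0.0244). Zfp36, whose protein tristetraprolin destroys cytokine mRNA, had 595, 454 and 571 CPM in the Pregnant libraries, against 1093, 1673 and 1717 CPM in the Virgin libraries (log2 fold change -1.47 ± 0.23, edgeR adjusted p = 0.0102). Both were among the more abundant falls, and the Pregnant and Virgin libraries stayed apart. Ppp1r15a, the stress-induced phosphatase subunit GADD34, had 218, 138 and 153 CPM in the Pregnant libraries, against 514, 899 and 1031 CPM in the Virgin libraries (log2 fold change -2.27 ± 0.27, edgeR adjusted p = 0.00668). Its model overlaps Tulp2, so its reads are uncertain if strand was not used. Gadd45b fell by 1.84 ± 0.23 and Gadd45g by 2.73 ± 0.46 on the log2 scale, both encoding small stress sensors. Cdkn1a, the cell cycle inhibitor p21, had 169, 99.1 and 121 CPM in the Pregnant libraries, against 353, 535 and 584 CPM in the Virgin libraries (log2 fold change -1.92 ± 0.26, edgeR adjusted p = 0.00702). Errfi1, an inhibitor of the EGF receptor, Zfp36l1, a relative of Zfp36, and the kinase gene Pim3 were lower as well, by 1.30 to 2.54. Socs3, the feedback inhibitor of IL-6 family signalling, missed the threshold at 146, 79.5 and 97.6 CPM in Pregnant and 196, 282 and 287 CPM in Virgin libraries (adjusted p = 0.0547) and passed without Lactating replicate 3. Gadd45b, Ppp1r15a and Cdkn1a kept their call without any single library, while the others reached an edgeR adjusted p of up to 0.215 (Pim3, without Pregnant replicate 2). The number called ran from 4 (without Pregnant replicate 2) to 8 (without Virgin replicate 1) over those fits. It was 16 of 31 without Lactating replicate 3, beside 3.26% of all genes in that fit.

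Some early genes are driven by CREB, which binds the cyclic AMP response element (CRE). The promoters of Btg2 (chr1:134079106-134079405, minus strand) and Dusp1 (chr17:26508423-26508722, minus strand) are shown because both hold the full element, which the windows of Fos and Nr4a1 do not. Each window runs from 250 bases before to 50 after the start in RefSeq, build GRCm38.p6, and capitals mark TGACGTCA.
Btg2: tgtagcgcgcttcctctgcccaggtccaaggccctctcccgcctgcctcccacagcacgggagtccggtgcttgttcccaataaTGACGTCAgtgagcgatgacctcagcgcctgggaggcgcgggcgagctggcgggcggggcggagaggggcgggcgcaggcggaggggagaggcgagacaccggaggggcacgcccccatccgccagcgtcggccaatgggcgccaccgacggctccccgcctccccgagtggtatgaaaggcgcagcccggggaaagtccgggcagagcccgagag
Dusp1: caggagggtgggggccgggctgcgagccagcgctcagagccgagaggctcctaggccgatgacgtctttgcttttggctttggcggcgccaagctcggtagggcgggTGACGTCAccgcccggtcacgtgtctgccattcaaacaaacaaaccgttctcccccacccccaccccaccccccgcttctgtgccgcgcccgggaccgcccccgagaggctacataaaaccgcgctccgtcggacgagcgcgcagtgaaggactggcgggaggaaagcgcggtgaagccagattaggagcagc
TGACGTCA was searched on both strands. It stood in 1 of 11 (9.09%) windows of the called early factors and 3 of 9 (33.3%) of the called feedback regulators. It stood in 9 of 94 (9.57%) windows of genes that fell, in 1 of 43 (2.33%) windows of genes that rose, and in 3.59% of 9799 windows of genes tested. Over all 32851 windows in the table the share was 1.79%. A match is a run of letters, not evidence of binding.

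NF-kB inhibitors led the falls in that pathway. Of 22 subunits, inhibitors and close regulators, 5 fell (22.7%, beside 1.32% of all genes) and none was called higher. Their median log2 fold change was -0.48. Nfkbia, which encodes IkB-alpha, had 1259, 919.8 and 1248 CPM in the Pregnant libraries, against 2112, 2710.5 and 2635 CPM in the Virgin libraries (log2 fold change -1.12 ± 0.19, edgeR adjusted p = 0.0169). Nfkbib, which encodes IkB-beta, fell by 1.73 ± 0.24 and Nfkbid, a nuclear IkB, by 1.40 ± 0.28 on the log2 scale. Nfkbiz, the nuclear IkB-zeta that shapes secondary target genes, had 363, 318 and 309.8 CPM in the Pregnant libraries, against 1095, 1657 and 1029.6 CPM in the Virgin libraries (log2 fold change -1.93 ± 0.27, edgeR adjusted p = 0.00761). Birc3, the ubiquitin ligase cIAP2, had 62.8, 65.5 and 98.2 CPM in Pregnant and 170.4, 171 and 191 CPM in Virgin libraries (log2 fold change -1.23 ± 0.22, edgeR adjusted p = 0.0201). The subunit genes did not pass in the fit to all 12 libraries: Nfkb1 had 31.5, 32.9 and 34.5 CPM in Pregnant and 57.3, 106 and 79.8 CPM in Virgin libraries (adjusted p = 0.0901) and Relb 44.8, 36.0 and 47.9 CPM in Pregnant and 57.2, 71.6 and 54.6 CPM in Virgin libraries (adjusted p = 0.445). Without Lactating replicate 3, 7 of 22 members fell, beside 3.26% of all genes called in that fit. The subunit genes Nfkb1 and Rela were among the 7. Nfkbiz and Nfkbib kept their call in the 6 fits without 1 library. Nfkbia, Nfkbid and Birc3 reached up to 0.184 (Nfkbid, without Pregnant replicate 2). The number called ran from 2 (without Pregnant replicate 1) to 4 (without Virgin replicate 1).

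Secreted inflammatory factors had fewer calls. Of 26 chemokine and chemokine receptor genes, 3 fell (11.5%, beside 1.32% of all genes) and none was called higher. Their median log2 fold change was -1.25. Cxcl2, a neutrophil attractant, had 2081, 1249 and 2648 CPM in the Pregnant libraries, against 5122, 4990.1 and 5134 CPM in the Virgin libraries (log2 fold change -1.35 ± 0.29, edgeR adjusted p = 0.0466). Ccl6 had 89.8, 137 and 104 CPM in Pregnant and 412, 352 and 422 CPM in Virgin libraries (log2 fold change -1.84 ± 0.37, edgeR adjusted p = 0.0344), and Ccl9 23.4, 29.6 and 21.1 CPM in Pregnant and 119, 94.4 and 108 CPM in Virgin libraries (log2 fold change -2.12 ± 0.34, edgeR adjusted p = 0.0139). These 2 CC chemokines are made by mouse myeloid cells, and the Ccl6 model overlaps E230016K23Rik. Ccl3 and Ccl4 did not pass, at 700.4, 556 and 719 CPM in Pregnant and 1116, 1849.6 and 2047 CPM in Virgin libraries (adjusted p = 0.255) for Ccl3. Among 32 cytokine and receptor genes, Osm and Il10ra fell and Csf1 rose (9.38% called, beside 1.32% of all genes). Osm, the IL-6 family cytokine oncostatin M, had 63.7, 46.9 and 37.5 CPM in the Pregnant libraries, against 149.9, 217 and 187 CPM in the Virgin libraries (log2 fold change -1.90 ± 0.34, edgeR adjusted p = 0.0201). Il10ra, the signalling chain of the IL-10 receptor, had 153, 143 and 148 CPM in Pregnant and 243, 332 and 362 CPM in Virgin libraries (log2 fold change -1.08 ± 0.21, edgeR adjusted p = 0.0318). Il1b missed the threshold, at 1289.7, 793 and 1472 CPM in Pregnant and 3699, 3116 and 3099 CPM in Virgin libraries (adjusted p = 0.102), and so did Tnf, at 235, 160.1 and 156 CPM in Pregnant and 335, 496 and 632 CPM in Virgin libraries (adjusted p = 0.194). Both had no overlap between the stages, and both fell in the fit without Lactating replicate 3, as did Il1a, Ccl3, Ccl4 and Cxcl1. Csf1, the ligand of the receptor that defines macrophages, had no count in a Virgin library and 0.445, 2.41 and 1.66 CPM in the Pregnant ones, which puts it at least 18.1-fold higher by the sum over each stage against a floor of 3 counts over the empty stage. Leaving out 1 library took the edgeR adjusted p of these called genes to at most 0.181 (Cxcl2, without Pregnant replicate 2). The number of chemokine genes called ran from 0 (without Pregnant replicate 1) to 1 (without Virgin replicate 1) in those fits. It was 8 of 26 without Lactating replicate 3, beside 3.26% of all genes in that fit.

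The promoters of Nfkbia (chr12:55492598-55492897, minus strand) and Cxcl2 (chr5:90903649-90903948, plus strand) are shown for the inhibitor and the chemokine, both textbook targets of NF-kB. Capitals mark the core, GGG and TCC with any 4 bases between them, on either strand, in RefSeq windows of the same build and length.
Nfkbia: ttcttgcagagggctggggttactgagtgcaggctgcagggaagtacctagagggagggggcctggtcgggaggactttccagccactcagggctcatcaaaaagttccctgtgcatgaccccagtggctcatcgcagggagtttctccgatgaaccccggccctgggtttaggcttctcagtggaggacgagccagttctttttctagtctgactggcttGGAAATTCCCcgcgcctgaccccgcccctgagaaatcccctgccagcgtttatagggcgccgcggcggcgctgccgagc
Cxcl2: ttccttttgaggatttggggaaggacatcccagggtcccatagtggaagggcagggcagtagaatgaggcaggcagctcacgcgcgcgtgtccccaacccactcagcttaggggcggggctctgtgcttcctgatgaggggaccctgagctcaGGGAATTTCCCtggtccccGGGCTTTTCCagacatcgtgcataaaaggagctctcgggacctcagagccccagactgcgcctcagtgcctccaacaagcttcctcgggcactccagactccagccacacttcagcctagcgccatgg
The Cxcl2 window held 3 matches, of which 2 overlap on opposite strands. The core is loose: it stood in 37 of 94 (39.4%) windows of genes that fell and in 27.3% of those of genes tested, and in 19.2% of all windows. The Birc3 window held none.

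Receptors on the macrophage surface changed in both directions, with more falls than rises. Of 39 inhibitory and activating receptor genes tested, 5 fell and 1 rose (15.4% called, beside 1.32% of all genes). Groups did not overlap for 14 that were lower and 6 that were higher, against 10.7% and 13.6% of all genes. Lilr4b, an immunoglobulin-like receptor of myeloid cells (Entrez gene 14727, chromosome 10, 51480612 to 51486329 in GRCm38.p6), had 209, 173 and 158 CPM in the Pregnant libraries, against 1042, 1799 and 1116 CPM in the Virgin libraries (log2 fold change -2.87 ± 0.24, edgeR adjusted p = 0.000995). It was the gene whose call held against a 2-fold change, and its relative Lilrb4a, an inhibitory receptor, fell less, with 766, 713 and 696 CPM in Pregnant and 1603, 2760.0 and 2061 CPM in Virgin libraries (log2 fold change -1.56 ± 0.26, edgeR adjusted p = 0.0160). Reads of these near copies are uncertain. Fcgrt, the neonatal Fc receptor that recycles IgG and albumin, had 26.2, 34.5 and 36.0 CPM in the Pregnant libraries, against 217, 191 and 217 CPM in the Virgin libraries (log2 fold change -2.69 ± 0.34, edgeR adjusted p = 0.00681). Fcrls, an Fc receptor-like gene known from mouse microglia, had no count in any Pregnant library and 4.36, 47.4 and 31.2 CPM in the Virgin libraries, which puts it at least 424-fold lower by the sum over each stage (adjusted p = 0.0318). Trem2, a lipid-sensing receptor of microglia and lipid-associated macrophages, had 6.45, 2.87 and 1.24 CPM in the Pregnant libraries, against 33.4, 123 and 53.7 CPM in the Virgin libraries (edgeR adjusted p = 0.0100). Virgin 2 was the highest library for both Fcrls and Trem2. Cd72, a co-receptor that inhibits B cells and is also found on macrophages, fell by 1.19 ± 0.20 on the log2 scale, and its model overlaps Tesk1. C3ar1, the receptor for complement fragment C3a, had 314, 335 and 306 CPM in the Pregnant libraries, against 1157, 1066 and 1088 CPM in the Virgin libraries (log2 fold change -1.79 ± 0.38, edgeR adjusted p = 0.0466), with the libraries of each stage close together. In the other direction Clec4n, the C-type lectin Dectin-2 that binds fungal mannans, had 507, 518 and 707 CPM in the Pregnant libraries, against 151, 108 and 101 CPM in the Virgin libraries (log2 fold change 2.27 ± 0.45, edgeR adjusted p = 0.0359).

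Scavenger and uptake receptors were split in the same way, with 3 falls and 1 rise among 29 tested (13.8% called, beside 1.32% of all genes). Cd36, which takes up oxidised lipoproteins and fatty acids, had 295, 73.8 and 86.4 CPM in the Pregnant libraries, against 549, 1027 and 983 CPM in the Virgin libraries (edgeR adjusted p = 0.0318). Pregnant 1 was the highest Pregnant library and still lay under Virgin 1. Lrp1, an endocytic receptor for apolipoprotein E and proteases, had 6.00, 6.77 and 5.59 CPM in Pregnant and 27.8, 37.6 and 54.2 CPM in Virgin libraries (edgeR adjusted p = 0.0244). Colec12, a collectin scavenger receptor, had no count in a Virgin library and 8.34, 12.05 and 27.1 CPM in the Pregnant libraries, which puts it at least 233-fold higher by the sum over each stage (adjusted p = 0.00702). Mrc1, the mannose receptor, had 5.45, 5.85 and 2.73 CPM in the Pregnant libraries, against 64.6, 108 and 124 CPM in the Virgin libraries, but with an SE of 1.11 on a log2 fold change of -4.42 it missed the threshold (adjusted p = 0.0955). Without Lactating replicate 3 it passed. Of the receptors named here, Lilr4b, Fcgrt and Colec12 kept their call without any single library. The others lost theirs in at least 1 such fit, with edgeR adjusted p up to 0.198 (C3ar1, without Pregnant replicate 3).

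Further falls reached adhesion, growth factor and signalling genes. Itga5, the integrin chain that pairs with beta-1 to bind fibronectin, had 42.6, 18.8 and 32.7 CPM in the Pregnant libraries, against 131, 245 and 305 CPM in the Virgin libraries (log2 fold change -2.85 ± 0.37, edgeR adjusted p = 0.00681), while Itgal, the alpha chain of LFA-1, which binds ICAM-1, was higher at 106, 119.9 and 156 CPM in the Pregnant libraries, against 38.7, 38.8 and 31.1 CPM in the Virgin libraries (log2 fold change 1.81 ± 0.25, edgeR adjusted p = 0.00702). These integrins differed in opposite directions, and both kept their call without any single library. They were the called members of 22 integrin and adhesion genes tested (9.09%, beside 1.32% of all genes). Hbegf, a ligand of the EGF receptor, had 10.7, 9.18 and 11.1 CPM in the Pregnant libraries, against 31.7, 97.2 and 92.7 CPM in the Virgin libraries (log2 fold change -2.84 ± 0.48, edgeR adjusted p = 0.0160). Pdgfa, a growth factor for mesenchymal cells, was higher, with 66.3, 103 and 94.5 CPM in Pregnant and 17.2, 33.8 and 19.4 CPM in Virgin libraries (log2 fold change 1.90 ± 0.39, edgeR adjusted p = 0.0383). Hbegf, Pdgfa and Csf1 were the called members of 24 growth factor genes tested (12.5%, beside 1.32% of all genes). The edgeR adjusted p without 1 library reached 0.184 (Pdgfa, without Pregnant replicate 2). Phlda1 and Emp3 were among the 15 largest falls by the naming rule: Phlda1, a pleckstrin-homology gene induced by stress, had 21.9, 12.3 and 27.9 CPM in Pregnant and 94.3, 204 and 131 CPM in Virgin libraries, and Emp3, a membrane protein gene, had 14.9, 14.3 and 8.16 CPM in Pregnant and 49.2, 88.6 and 82.3 CPM in Virgin libraries. Both kept their call in all 6 fits. Id3, Gng12, Cd93, Apold1 and Ipcef1 were also among the 15. Gng12, a G protein gamma subunit, had 1.56, 0.115 and 0.745 CPM in Pregnant and 16.2, 69.0 and 42.0 CPM in Virgin libraries, and Cd93, a lectin-like receptor of endothelial and myeloid cells, had 1.33, 0 and 0.207 CPM in Pregnant and 23.99, 27.8 and 14.1 CPM in Virgin libraries. Apold1 is known as an early gene of endothelial cells and had 0, 0 and 0.0414 CPM in Pregnant and 2.07, 7.84 and 34.1 CPM in Virgin libraries. Endothelial genes were lower in the same libraries, with 17 of 17 tested below 0, beside 6115 of all 12672. Of these 17 endothelial genes, 0 were called by edgeR, beside 1.32% of all genes. Their part in Cd93 and Apold1 was not tested. Ipcef1, which acts on ARF6 exchange factors, had 2.56, 4.36 and 2.32 CPM in Pregnant and 31.3, 18.1 and 42.1 CPM in Virgin libraries. The called genes Id3, Gng12, Cd93, Apold1 and Ipcef1 reached an edgeR adjusted p of up to 0.263 (Apold1, without Pregnant replicate 3) without 1 library.

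Several falls outside the lists are named for their size or stability, chosen after their values were seen. Cd83, a maturation marker of antigen-presenting cells, had 844, 576 and 883 CPM in the Pregnant libraries, against 3107, 3874 and 3685 CPM in the Virgin libraries (log2 fold change -2.21 ± 0.39, edgeR adjusted p = 0.0188), the most abundant of them. Rcan1, an inhibitor of calcineurin, had 176, 114 and 249.6 CPM in Pregnant and 553, 826 and 733 CPM in Virgin libraries, and Mef2c, a transcription factor of myeloid and muscle cells, had 40.9, 38.8 and 44.6 CPM in Pregnant and 126, 253 and 157 CPM in Virgin libraries. Dab2, an endocytic adaptor, had 104, 70.4 and 96.6 CPM in the Pregnant libraries, against 293, 424 and 271 CPM in the Virgin libraries (log2 fold change -1.87 ± 0.24, edgeR adjusted p = 0.00681). Hpgd, which inactivates prostaglandin E2, had 269, 322 and 280.3 CPM in the Pregnant libraries, against 865, 746 and 680.1 CPM in the Virgin libraries (log2 fold change -1.39 ± 0.20, edgeR adjusted p = 0.00702). Its libraries formed clearly separate sets in both stages. Map2k3, the kinase that activates p38, fell by 1.91 ± 0.26, Slfn2, a schlafen gene needed for leukocyte quiescence, by 1.42 ± 0.20, the creatine kinase gene Ckb by 2.29 ± 0.31 and Slco2b1, an organic anion transporter, by 1.66 ± 0.21 on the log2 scale. Dab2, Hpgd, Map2k3, Slfn2, Ckb and Slco2b1 kept their call without any single library, whereas Cd83, Rcan1 and Mef2c reached an edgeR adjusted p of up to 0.129 (Mef2c, without Pregnant replicate 2).

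Lysozyme was the most abundant change that rose. Lyz2, the bacteria-digesting lysozyme of myeloid cells (Entrez gene 17105, chromosome 10, 117277541 to 117282272 in GRCm38.p6), had 26955, 27315 and 24327 CPM in the Pregnant libraries, against 5447, 3216 and 3120.3 CPM in the Virgin libraries (log2 fold change 2.74 ± 0.45, edgeR adjusted p = 0.0152). Per length it held rank 2 of all genes in Pregnant, at 45171 ± 775 TPM (counts scaled by gene length and by library), and rank 13 in Virgin, at 6854 ± 2069 (SD, n = 3 each). Virgin 1 was the highest of the Virgin libraries. Its near copy Lyz1, typical of Paneth cells in the mouse gut, had 479.8, 593 and 2652 CPM in the Pregnant libraries, against 105, 41.0 and 44.7 CPM in the Virgin libraries (log2 fold change 4.29 ± 0.79, edgeR adjusted p = 0.0242), with Pregnant 3 well above the other Pregnant libraries, and the assignment of reads between the copies is uncertain. Adamdec1, a metalloprotease-like gene of tissue macrophages, had 1014, 1339 and 1229.7 CPM in the Pregnant libraries, against 83.0, 35.3 and 96.3 CPM in the Virgin libraries (log2 fold change 4.06 ± 0.68, edgeR adjusted p = 0.0160). Complement genes of the alternative pathway rose: Cfb, factor B, had 375, 359 and 359 CPM in the Pregnant libraries, against 15.6, 0.555 and 16.5 CPM in the Virgin libraries (log2 fold change 5.07 ± 0.94, edgeR adjusted p = 0.0244), and Cfp, which encodes properdin, the factor that stabilises the C3 convertase, had 631, 700.3 and 474 CPM in the Pregnant libraries, against 90.9, 18.7 and 18.6 CPM in the Virgin libraries (log2 fold change 3.82 ± 0.62, edgeR adjusted p = 0.0142). The Pregnant libraries were nearly equal for Cfb, while Virgin 2 was close to 0. With C3ar1 lower, the complement list had 2 rises and 1 fall among 19 tested (15.8% called, beside 1.32% of all genes).

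A pair of abundant secreted enzymes was chosen after their values were seen. Dnase1l3, a nuclease that digests DNA in apoptotic debris, had 1008, 1079 and 1510.4 CPM in the Pregnant libraries, against 346, 145 and 160.2 CPM in the Virgin libraries (log2 fold change 2.46 ± 0.37, edgeR adjusted p = 0.00990). Pla2g7, which inactivates platelet-activating factor, had 1893, 2397 and 2949.7 CPM in the Pregnant libraries, against 738, 557 and 527 CPM in the Virgin libraries (log2 fold change 1.99 ± 0.29, edgeR adjusted p = 0.00764). It overlaps 1700071M16Rik, which rose too and had no count in a Virgin library, so reads of both are uncertain. 1700071M16Rik kept its call in all 6 fits without 1 library, while Lyz2, Lyz1, Adamdec1, Cfb, Cfp, Dnase1l3 and Pla2g7 each lost it in at least 1, with edgeR adjusted p up to 0.129 (Lyz1, without Virgin replicate 2). All passed without Lactating replicate 3, with Lyz2 at 0.000247.

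**Figure D3:**
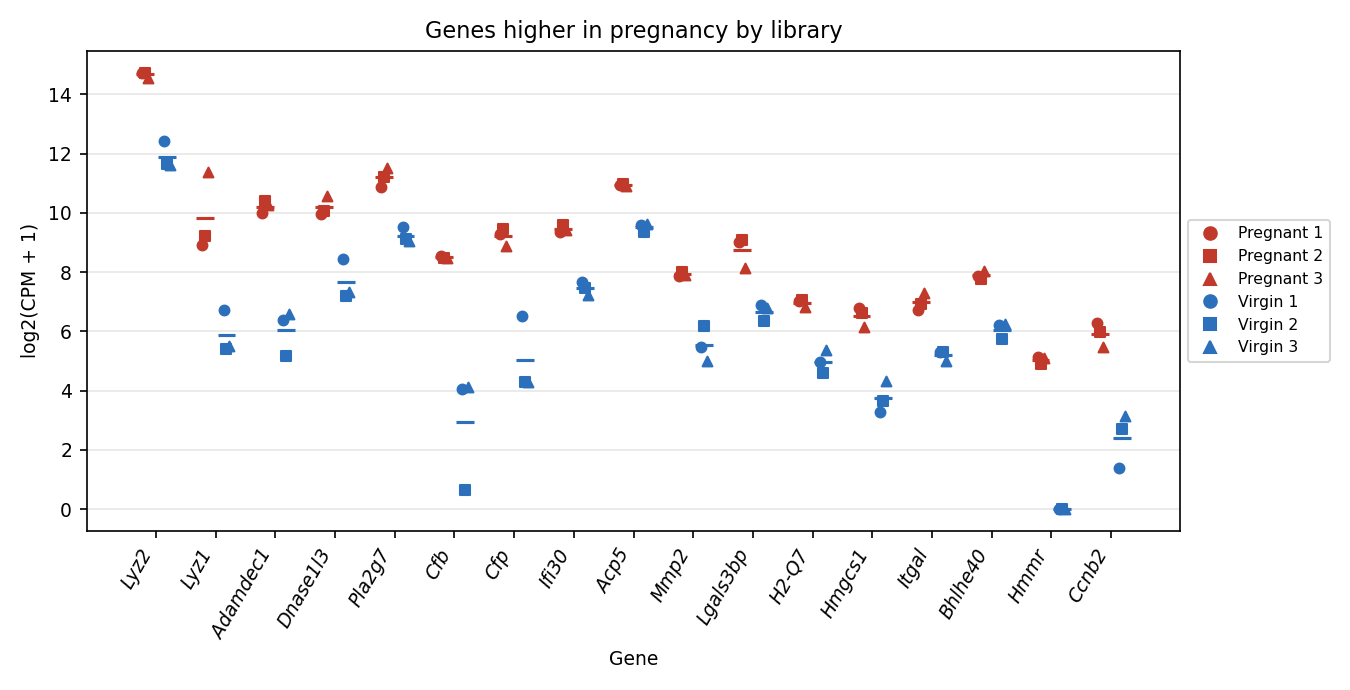
Genes higher in pregnancy by library, as log2(CPM + 1), with Pregnant libraries in red and Virgin libraries in blue and a bar at the mean of each stage. All Pregnant libraries lie above all Virgin libraries of the same gene. Lyz2 is the most abundant, and Hmmr was at 0 in every Virgin library.

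Lysosomal and MHC class I genes mostly had positive fold changes, with few calls, and MHC class II genes did not. Of 53 genes tested on the lysosomal and osteoclast-like list, 2 rose (3.77%, beside 1.32% of all genes) and none was called lower. Their median log2 fold change was 0.44. Ifi30, the lysosomal thiol reductase GILT that unfolds antigens for MHC class II, had 659, 763 and 679 CPM in the Pregnant libraries, against 200.2, 177 and 149 CPM in the Virgin libraries (log2 fold change 1.998 ± 0.22, edgeR adjusted p = 0.00507). Acp5, tartrate-resistant acid phosphatase, an osteoclast marker, had 1962, 2025 and 1919 CPM in the Pregnant libraries, against 771, 648 and 792 CPM in the Virgin libraries (log2 fold change 1.42 ± 0.27, edgeR adjusted p = 0.0255). Ifi30 kept its call without any single library, and Acp5 reached 0.136 (Acp5, without Virgin replicate 2). Groups did not overlap for 25 members that were higher and 2 that were lower, against 13.6% and 10.7% of all genes. Without Lactating replicate 3, 11 of 53 rose, beside 3.26% of all genes called in that fit. Among the 11 were the cathepsin genes Ctsd, Ctsz, Ctsl and Ctsc. The list took 6.95, 7.37 and 6.69% of counts in the Pregnant libraries, against 5.17, 4.88 and 4.77% in the Virgin libraries. The groups did not overlap, and the exact permutation test gave its smallest p of 0.1. Of 26 MHC class I and peptide-loading genes, 1 was called (3.85%, beside 1.32% of all genes). H2-Q7 rose, with 128, 132 and 111 CPM in Pregnant and 30.3, 23.3 and 40.3 CPM in Virgin libraries (log2 fold change 1.99 ± 0.33, edgeR adjusted p = 0.0150), and its near copies make the reads uncertain. Its edgeR adjusted p reached 0.0832 (H2-Q7, without Virgin replicate 2). B2m and Tapbp passed in the fit without Lactating replicate 3. Of 19 MHC class II presentation genes, 1 was called (5.26%, beside 1.32% of all genes). The log2 fold change was above 0 for 7 and below for 12, with a median of -0.12. They took 12.6, 12.5 and 10.99% of counts in the Pregnant libraries, against 13.6, 13.4 and 14.1% in the Virgin libraries, lower with no overlap (exact permutation p = 0.1, the smallest possible). Ifi30 was the one called, and Cd74, the invariant chain, had 55657, 49845 and 37703 CPM in Pregnant and 66151, 63278 and 69116 CPM in Virgin libraries (adjusted p = 0.807).

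Among metabolic genes there were single calls. Hmgcs1, the synthase that makes HMG-CoA for cholesterol, had 109.5, 97.5 and 70.6 CPM in the Pregnant libraries, against 8.61, 11.5 and 19.1 CPM in the Virgin libraries (log2 fold change 2.82 ± 0.37, edgeR adjusted p = 0.00681) and kept its call without any single library. It was the called member of 26 cholesterol genes tested (3.85%, beside 1.32% of all genes), whose median log2 fold change was 0.72. Apoc2, the activator of lipoprotein lipase, had 65.0, 102 and 76.7 CPM in Pregnant and 19.6, 26.1 and 21.8 CPM in Virgin libraries (log2 fold change 1.85 ± 0.28, edgeR adjusted p = 0.00990). Antioxidant genes were divided. Gsr, glutathione reductase, had 289.9, 365 and 369 CPM in Pregnant and 106, 76.8 and 78.1 CPM in Virgin libraries (log2 fold change 1.97 ± 0.42, edgeR adjusted p = 0.0465), and Txn1, thioredoxin, had 224, 329 and 252 CPM in Pregnant and 141, 77.8 and 112 CPM in Virgin libraries (log2 fold change 1.28 ± 0.24, edgeR adjusted p = 0.0254). Sqstm1, the autophagy receptor p62, was lower, with 447, 485 and 469.6 CPM in Pregnant and 882, 1203 and 964 CPM in Virgin libraries (log2 fold change -1.12 ± 0.18, edgeR adjusted p = 0.0123). Slc11a1, the metal transporter NRAMP of phagosomes, and Mt1, a metallothionein, fell by 1.47 ± 0.31 and 1.12 ± 0.21 on the log2 scale. They were the called members of 23 iron, heme and metallothionein genes tested (8.70%, beside 1.32% of all genes). Slc38a1, an amino acid transporter, rose, with 129.8, 113 and 126 CPM in Pregnant and 41.4, 36.4 and 36.0 CPM in Virgin libraries. Of 71 oxidative phosphorylation genes, 69 had a log2 fold change above 0, beside 6537 of the 12672 genes tested, and the median was 0.58. Only Ndufa13, a complex I subunit, passed (156, 161 and 168 CPM in Pregnant and 95.03, 79.2 and 83.2 CPM in Virgin libraries, adjusted p = 0.0383), a share of 1.41% beside 1.32% of all genes. Without Lactating replicate 3, 7 of 72 rose, beside 3.26% of all genes called in that fit. Ndufa13 overlaps Tssk6. The share of these genes was 0.918, 0.995 and 1.06% of counts in the Pregnant libraries, against 0.705, 0.552 and 0.616% in the Virgin libraries. Glycolysis genes had a median of 0.05, with 0 of 29 called by edgeR, beside 1.32% of all genes. Without Lactating replicate 3, 0 of 31 were called, beside 3.26% of all genes. Apart from Hmgcs1, the metabolic, antioxidant and transport genes called here reached an edgeR adjusted p of up to 0.215 (Slc11a1, without Pregnant replicate 2) without 1 library.

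The promoter of Hmgcs1 (chr13:119690101-119690400, plus strand) is shown because cholesterol genes are driven by SREBP, which binds the sterol element SRE-1. Capitals mark TCACCCCAC, searched on both strands of the RefSeq window.
Hmgcs1: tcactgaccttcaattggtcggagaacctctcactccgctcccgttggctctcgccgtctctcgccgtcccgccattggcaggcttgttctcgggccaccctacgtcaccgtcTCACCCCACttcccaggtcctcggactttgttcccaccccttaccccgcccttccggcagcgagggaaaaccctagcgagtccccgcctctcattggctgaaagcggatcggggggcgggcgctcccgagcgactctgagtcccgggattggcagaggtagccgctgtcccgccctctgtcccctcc
This exact run stood in 1 of 19 (5.26%) windows of the cholesterol genes tested, in 0.663% of windows of genes tested and in 0.551% of all windows. That 1 window is the Hmgcs1 window shown, and no other cholesterol gene tested held the run.

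Cell cycle genes mostly had positive fold changes, with few calls. Of 74 tested, 3 rose (4.05%, beside 1.32% of all genes) and none was called lower. The log2 fold change was above 0 for 70, beside 6537 of the 12672 genes tested, and the median was 2.27. Groups did not overlap for 52 that were higher and 1 that was lower, against 13.6% and 10.7% of all genes. Hmmr, which binds hyaluronan and works at the spindle in mitosis, had no count in a Virgin library and 33.8, 29.0 and 33.5 CPM in the Pregnant libraries, which puts it at least 381-fold higher by the sum over each stage (adjusted p = 0.0201). Ccnb2, mitotic cyclin B2, had 77.1, 61.7 and 43.1 CPM in the Pregnant libraries, against 1.61, 5.55 and 7.89 CPM in the Virgin libraries (log2 fold change 3.58 ± 0.74, edgeR adjusted p = 0.0404). Spc24, a kinetochore subunit, had 23.4, 29.3 and 8.82 CPM in the Pregnant libraries, against 0.115, 0 and 0 CPM in the Virgin libraries (adjusted p = 0.0486). The number called ran from 0 (without Pregnant replicate 1) to 3 (without Virgin replicate 3) in the fits without 1 library. All 3 lost their call in at least 1 of them, with edgeR adjusted p up to 0.200 (Spc24, without Pregnant replicate 2). Mki67, the antigen Ki-67, did not pass, with 59.9, 76.5 and 103 CPM in Pregnant and 11.02, 68.7 and 41.8 CPM in Virgin libraries (adjusted p = 0.702): Virgin 2 lay above Pregnant 1. Birc5, the mitotic regulator survivin, averaged 76.7 ± 7.40 CPM in Pregnant and 8.84 ± 10.7 CPM in Virgin libraries (SD, n = 3 each, edgeR adjusted p = 0.0935) and passed without Lactating replicate 3. In that fit 8 of 74 cell cycle genes rose and 1 fell, beside 3.26% of all genes called. The list took 0.301, 0.298 and 0.271% of counts in the Pregnant libraries, against 0.0861, 0.0789 and 0.115% in the Virgin libraries, with an exact permutation p of 0.1.

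Mitotic genes share CCAAT boxes, bound by NF-Y, and the cell cycle homology region (CHR) TTTGAA. Both were searched on both strands in the RefSeq windows of Hmmr (chr11:40733388-40733687, minus strand) and Ccnb2 (chr9:70421505-70421804, minus strand), where capitals mark either motif.
Hmmr: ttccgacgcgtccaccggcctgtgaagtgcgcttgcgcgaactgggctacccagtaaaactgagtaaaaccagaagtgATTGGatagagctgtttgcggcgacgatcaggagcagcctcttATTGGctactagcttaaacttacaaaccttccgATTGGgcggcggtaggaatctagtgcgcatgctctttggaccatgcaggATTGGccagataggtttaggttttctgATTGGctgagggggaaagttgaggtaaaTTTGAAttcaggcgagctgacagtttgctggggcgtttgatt
Ccnb2: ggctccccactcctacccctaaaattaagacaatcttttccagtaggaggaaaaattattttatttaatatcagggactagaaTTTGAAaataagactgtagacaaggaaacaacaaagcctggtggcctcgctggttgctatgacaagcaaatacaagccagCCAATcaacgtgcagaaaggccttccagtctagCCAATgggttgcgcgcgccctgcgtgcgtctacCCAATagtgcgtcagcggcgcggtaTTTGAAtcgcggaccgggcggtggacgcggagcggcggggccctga
CCAAT, or ATTGG on the other strand, occurred 5 times for Hmmr and 3 times for Ccnb2, and the CHR 1 and 2 times. CCAAT stood in 42 of 59 (71.2%) windows of the cell cycle genes tested, in 42.8% of windows of genes tested and in 37.4% of all windows. The CHR stood in 30 of 59 (50.8%), 14.5% and 17.9% of the same sets. The windows belong to the list as a whole, most of whose members were not called.

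Matrix and signalling genes added single rises, while most of the matrix list had negative fold changes. Of 29 matrix remodelling genes tested, 1 rose (3.45%, beside 1.32% of all genes). The log2 fold change was above 0 for 9 and below for 20, with a median of -0.99. Groups did not overlap for 6 that were higher and 9 that were lower, against 13.6% and 10.7% of all genes. Without Lactating replicate 3, 1 of 30 rose and 3 fell, beside 3.26% of all genes called. Mmp2, the gelatinase MMP-2, had 233, 255 and 238 CPM in the Pregnant libraries, against 43.8, 72.0 and 30.9 CPM in the Virgin libraries (log2 fold change 2.31 ± 0.38, edgeR adjusted p = 0.0152). Its edgeR adjusted p reached 0.0634 (Mmp2, without Pregnant replicate 2). Fibroblasts are a usual source of Mmp2. It was the called member of 14 fibroblast genes tested (7.14%, beside 1.32% of all genes). The collagen genes Col1a1, Col1a2 and Col3a1 reached at most 2.90 CPM in any Pregnant library, while Virgin 2 held 47.2, 99.5 and 55.1 CPM. The part of fibroblasts in Mmp2 was not tested. Gpm6b, a membrane proteolipid gene best known in the nervous system, had 193, 315 and 147 CPM in the Pregnant libraries, against 4.82, 0 and 0.585 CPM in the Virgin libraries, and Gpr83, a G protein-coupled receptor known from brain and T cells, had 63.7, 62.2 and 65.9 CPM in the Pregnant libraries, against 0.689, 0 and 0 CPM in the Virgin libraries. In both, 2 or more Virgin libraries were under 1 CPM, and the edgeR adjusted p was 0.0458 for Gpm6b and 0.0484 for Gpr83, reaching 0.203 (Gpm6b, without Pregnant replicate 2) without 1 library. The Gpm6b model overlaps Ofd1. Fastkd3, a mitochondrial RNA-binding gene chosen after its values were seen, had 95.3, 117 and 80.8 CPM in Pregnant and 16.5, 27.7 and 13.7 CPM in Virgin libraries and kept its call without any single library, but it overlaps Mtrr.

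Transcripts of milk proteins were present in every Pregnant library. Of 22 milk and secretory genes tested, 4 rose (18.2%, beside 1.32% of all genes) and none was called lower. Csn2, beta-casein, had 3111, 316 and 456 CPM in the Pregnant libraries, against 0, 0 and 0.0731 CPM in the Virgin libraries (edgeR adjusted p = 0.0160), the last of these being 1 count. Csn1s2a, an alpha-S2-like casein, had no count in a Virgin library and 7304, 878 and 1057 CPM in the Pregnant libraries, which puts it at least 27564-fold higher by the sum over each stage. Csn1s1, alpha-S1-casein, and Glycam1, a mucin-like milk protein, were also without a count in Virgin, at least 5917-fold and 1658-fold higher. For each of the 4, Pregnant 1 was the highest library. Fabp3, a fatty acid-binding protein of the lactating gland, followed the same order, with 78.6, 8.03 and 13.9 CPM in Pregnant and 0, 0.475 and 0 CPM in Virgin libraries (log2 fold change 7.56 ± 1.55, edgeR adjusted p = 0.0400). Milk gene calls numbered from 0 (without Virgin replicate 1) to 1 (without Pregnant replicate 1) in the fits without 1 library. In those fits the edgeR adjusted p of Fabp3 and the 4 genes reached 0.154 (Fabp3, without Pregnant replicate 1). Without Lactating replicate 3, 6 of 22 milk genes were called, beside 3.26% of all genes. The whole list took 1.86% of the counts of Pregnant 1 (exact 95% binomial interval 1.85 to 1.87%), 0.368% of Pregnant 2 and 0.466% of Pregnant 3, against 0.155, 0.174 and 0.192% of the Virgin libraries. In Virgin these counts came mainly from Plin2, a lipid droplet coat protein, and Trf, transferrin, which macrophages also express. Plin2 had 874, 983 and 789 CPM in Pregnant and 686, 997 and 749 CPM in Virgin libraries, and Trf had 1906, 687 and 700.4 CPM in Pregnant and 852, 657 and 795 CPM in Virgin libraries.

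Luminal epithelial genes are shown beside the milk transcripts. Of 21 tested, 0 were called by edgeR (beside 1.32% of all genes), and 2 of 22 fell without Lactating replicate 3 (beside 3.26%). The median log2 fold change of the luminal genes was -1.93. Virgin replicate 3 set the sign of that median, which was 0.29 without it and -2.42 without Virgin replicate 2. Summed luminal levels were 283 to 414 CPM in Pregnant and 213 to 1385 CPM in Virgin libraries. Pgr, the progesterone receptor, was at 0 in all 6 libraries. Epcam, the epithelial adhesion molecule, stood apart from the keratins with 208, 188 and 171 CPM in Pregnant and 20.9, 9.27 and 86.6 CPM in Virgin libraries, which missed the threshold (adjusted p = 0.201), while Krt18 had 39.4, 21.1 and 21.6 CPM in Pregnant and 46.0, 49.5 and 223 CPM in Virgin libraries. The part of epithelial cells or free RNA in the milk transcripts was not tested.

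The promoter of Csn2 (chr5:87699376-87699675, minus strand) is shown because prolactin drives casein genes through STAT5, which binds the GAS motif TTCNNNGAA. Capitals mark it in the RefSeq window, and it was searched on both strands.
Csn2: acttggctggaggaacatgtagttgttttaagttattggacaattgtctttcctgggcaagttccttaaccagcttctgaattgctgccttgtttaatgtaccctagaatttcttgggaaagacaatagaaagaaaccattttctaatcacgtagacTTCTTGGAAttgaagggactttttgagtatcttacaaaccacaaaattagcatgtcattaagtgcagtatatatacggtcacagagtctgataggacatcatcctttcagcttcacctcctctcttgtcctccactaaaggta
The motif stood in the windows of all 4 called milk genes, in 4 of 16 (25.0%) windows of the milk genes tested, in 8.31% of windows of genes tested and in 8.30% of all windows.

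**Figure D4:**
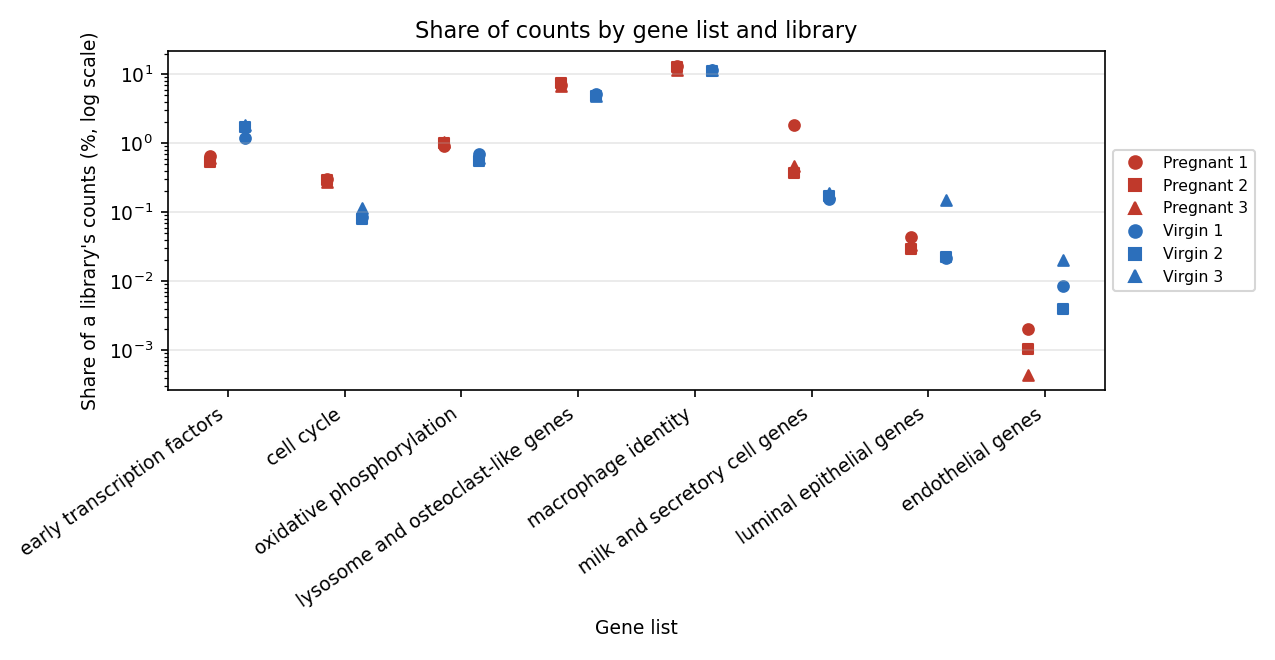
Share of each library's counts in 8 gene lists, in percent on a log scale, with Pregnant libraries in red and Virgin libraries in blue. Early factors are lower and cell cycle, oxidative phosphorylation, lysosomal and milk genes are higher in all Pregnant libraries, while macrophage identity and luminal genes overlap.

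Genes that define the population were followed whether or not they changed. Adgre1, the F4/80 antigen, had 478, 673 and 671 CPM in the Pregnant libraries, against 820.3, 713 and 698 CPM in the Virgin libraries (adjusted p = 0.916). Itgax, CD11c, had 302, 283 and 543 CPM in Pregnant and 288, 242 and 213 CPM in Virgin libraries (adjusted p = 0.444), and Cx3cr1, the fractalkine receptor, had 317, 226 and 349.8 CPM in Pregnant and 374, 383 and 395 CPM in Virgin libraries (adjusted p = 0.536). Neither passed the test. Itgam, CD11b, was low, with 3.56, 2.29 and 6.00 CPM in Pregnant and 10.7, 16.95 and 10.3 CPM in Virgin libraries (adjusted p = 0.804). Of the hormone receptors, Nr3c1, the glucocorticoid receptor, had 70.1, 66.7 and 50.6 CPM in Pregnant and 113, 134 and 83.4 CPM in Virgin libraries (adjusted p = 0.497), and Prlr, the prolactin receptor, had 5.004, 1.03 and 4.47 CPM in Pregnant and 13.4, 0 and 145 CPM in Virgin libraries (adjusted p = 0.424). Virgin 3, with its raised keratins, held most of the Prlr counts. Esr1 did not pass the filter on low counts. Among 28 macrophage identity genes, Lyz2 rose and Cebpb fell (7.14% called, beside 1.32% of all genes). The list took 13.1, 12.6 and 11.4% of counts in the Pregnant libraries, against 11.5, 11.02 and 11.6% in the Virgin libraries.

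**Figure D5:**
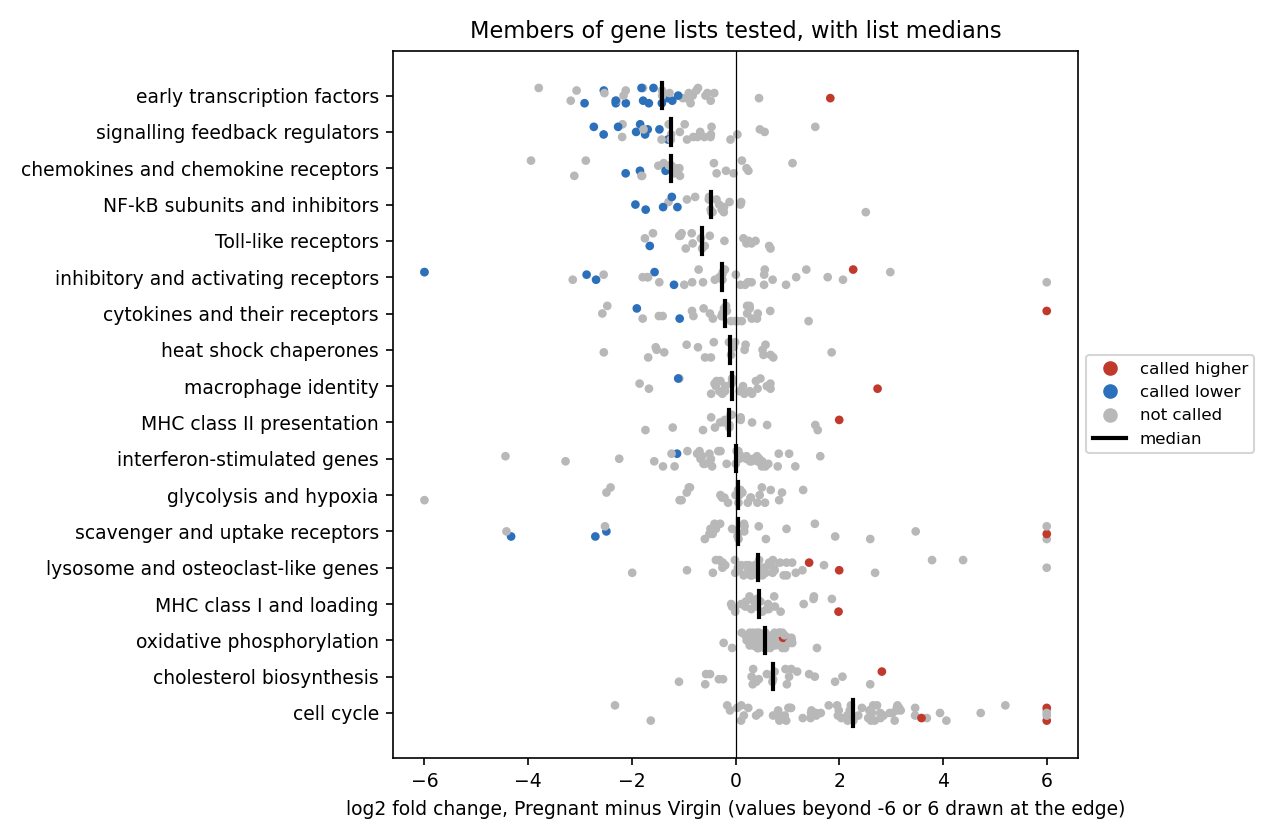
Log2 fold changes of Pregnant over Virgin for the members of 18 gene lists, 1 list per row. Red points are members called higher, blue points members called lower, grey points members not called, and black bars the list medians. The early factor, feedback and chemokine lists lie left of 0, and the oxidative phosphorylation and cell cycle lists right of it.

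The other stages place these levels. In stage order, Fos had 1695 ± 304 CPM in the virgin stage, 532 ± 87.3 CPM in pregnancy, 618, 492 and 541 CPM in Lactating 1, 2 and 3, and 1777 ± 315 CPM after weaning (mean ± SD, n = 3 a stage). Pregnant did not differ detectably from lactating (log2 fold change -0.05 ± 0.21, adjusted p = 0.946, and 1.00 without Lactating replicate 3) and was lower than post-weaning (log2 fold change -1.74 ± 0.22, adjusted p = 0.00796). Egr1 was lowest in pregnancy by its mean, although Lactating 2 lay below Pregnant 1, with 1524 ± 473 CPM in the virgin stage, 262 ± 48.6 CPM in pregnancy, 601, 269 and 659 CPM in Lactating 1, 2 and 3, and 1172 ± 122 CPM after weaning. Its values were log2 fold change -0.96 ± 0.33, adjusted p = 0.148, and 0.299 without Lactating replicate 3, against lactating, and log2 fold change -2.16 ± 0.35, adjusted p = 0.0184, against post-weaning. Btg2 was lowest in pregnancy, with 741 ± 98.4 CPM in the virgin stage, 171 ± 39.6 CPM in pregnancy, 531, 399 and 378 CPM in Lactating 1, 2 and 3, and 506 ± 85.4 CPM after weaning: log2 fold change -1.35 ± 0.23, adjusted p = 0.00734, and 0.00424 without Lactating replicate 3 against lactating, and log2 fold change -1.57 ± 0.23, adjusted p = 0.0156 against post-weaning. Lilr4b was lowest in pregnancy too, at 1319 ± 417 CPM in the virgin stage, 180.1 ± 25.9 CPM in pregnancy, 2766, 2431 and 2231 CPM in Lactating 1, 2 and 3, and 1214 ± 61.8 CPM after weaning. Against lactating its values were log2 fold change -3.78 ± 0.25, adjusted p = 7.60e-05, and 6.49e-06 without Lactating replicate 3, and against post-weaning log2 fold change -2.75 ± 0.24, adjusted p = 0.00149. Ifi30 was highest in pregnancy, at 175 ± 25.5 CPM in the virgin stage, 701 ± 55.1 CPM in pregnancy, 174, 201 and 171 CPM in Lactating 1, 2 and 3, and 187 ± 50.3 CPM after weaning. It passed against lactating (log2 fold change 1.94 ± 0.22, adjusted p = 0.000717, and 0.000663 without Lactating replicate 3) and against post-weaning (log2 fold change 1.91 ± 0.22, adjusted p = 0.00620). Cfp likewise had 42.7 ± 41.7 CPM in the virgin stage, 602 ± 116 CPM in pregnancy, 44.4, 68.7 and 42.6 CPM in Lactating 1, 2 and 3, and 46.9 ± 21.6 CPM after weaning, and passed against lactating (log2 fold change 3.54 ± 0.61, adjusted p = 0.00821, and 0.0153 without Lactating replicate 3) and against post-weaning (log2 fold change 3.68 ± 0.61, adjusted p = 0.0231). Lyz2 was highest in pregnancy by its mean, with 3928 ± 1317 CPM in the virgin stage, 26199 ± 1631 CPM in pregnancy, 8971, 6384 and 2101 CPM in Lactating 1, 2 and 3, and 9567 ± 1841 CPM after weaning, but pregnant and post-weaning were not told apart (log2 fold change 1.45 ± 0.43, adjusted p = 0.213) unless Lactating replicate 3 was left out (adjusted p = 0.00772). Adamdec1 had 71.5 ± 32.1 CPM in the virgin stage, 1194 ± 165 CPM in pregnancy, 489.6, 541 and 60.7 CPM in Lactating 1, 2 and 3, and 940.0 ± 243 CPM after weaning, and pregnant and post-weaning did not differ detectably (log2 fold change 0.35 ± 0.60, adjusted p = 0.998). Over all genes, 3.85% were called between pregnant and lactating (5.13% without Lactating replicate 3) and 0.718% between pregnant and post-weaning (2.29%). These comparisons share the Pregnant libraries with the main one.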

How the data were processed

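Raw read counts per gene were deposited by the authors, whole numbers that are not normalized. Per the submitters' processing notes they came from featureCounts with mm10. The sources used here do not give the aligner or whether strand was used, so overlapping genes (28 of the 167 called) are uncertain. Symbols, coordinates and promoter windows were taken from RefSeq tables of GRCm38.p6, the assembly behind mm10, and matched 25275 of 27179 Entrez identifiers. The rest held at most 0.825% of a library's counts.

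Genes were filtered with filterByExpr by stage (12672 left), scaled by TMM and fitted in edgeR 4.0.16 (R 4.3.3) with 1 robust quasi-likelihood model and a mean per stage over all 12 libraries. The contrast was Pregnant minus Virgin, with Benjamini-Hochberg adjustment over all genes tested and a threshold of 0.05. SE is the absolute log2 fold change over the root of F. The common biological coefficient of variation was 0.856. The procedure was also run on simulated counts with known fold changes. Apart from the changed genes, these were drawn around a mean shared by all stages. The simulation therefore does not carry the uneven libraries of these data, and no result here rests on it. The kit adds no molecular identifiers, and intervals and floors cover counting error only. The p-values measure the spread between samples labelled biological replicates. Pairs of libraries of a stage differed by more than sampling noise.

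Genes to name were taken from 42 lists (every called member), from the called genes with no overlap and an average log2 CPM of 3 or more (the 15 with the greatest rise and the 15 with the greatest fall), and from 12 fixed genes. Not all are printed. Members and lists were chosen with earlier results of these data known. Alternatives were DESeq2 1.42.0, limma-voom (limma 3.58.1), other scalings and filters, a replicate block, other sets of libraries and a test against a 2-fold change.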

Additional observations from a re-analysis of the deposited data

How the results depend on the processing

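Against 167 calls (56 higher, 111 lower), DESeq2 called 743 (278 higher, 465 lower), including 164 of the 167, with 3 given no adjusted p. Limma-voom called 311 (148 higher, 163 lower) and kept 152. The fit without Lactating replicate 3 called 438 (158 higher, 280 lower). Against a 2-fold change 1 gene was called (0 higher, 1 lower), with 1547 genes at an unadjusted p under 0.05 in the test against no change. RLE size factors, TMM without milk, luminal, ribosomal and mitochondrial genes, either filter and the fit to the 6 libraries gave 154 to 230 calls. Leaving out each Pregnant or Virgin replicate gave 40 to 118 calls, 10 to 33 higher and 28 to 85 lower. Fewer libraries give less power, but the cause of single losses was not tested. The replicate block called 100 genes (27 higher, 73 lower). Deviations of same-numbered Pregnant and Virgin libraries from their stage means were nearly uncorrelated (r = -0.04, 0.02 and -0.05), and Pregnant 1 correlated best with Virgin 3 (0.12). With 3 libraries a stage, such values cannot tell whether the replicate numbers pair the libraries. None of the 96 tested genes taken by the naming rule changed direction in the alternatives run. Nor did the shares of the early factor, feedback, cell cycle, oxidative phosphorylation, lysosomal, MHC class I, milk and endothelial lists. Other genes and shares printed here were not put through that check. List medians did change direction: 13 of 42 changed sign in at least 1. Without Virgin replicate 3 the luminal median was 0.29, against -1.93, that of growth factors 0.07, against -0.50, and that of iron, heme and metallothionein genes 0.26, against -0.36. Without 1 library, the glycolysis median ran from -0.16 to 0.15 and the interferon median from -0.21 to 0.14. Of the list medians over the alternatives 174 moved by more than the spread and 498 did not, and of the counts of members called 252 moved by over 1.5 times and 420 did not. Of the fold changes of named genes over the alternatives, 1086 kept their side of the threshold, 442 fell behind it and 4 passed it. Limma-voom moved the median of all genes to 0.17 and the fit without Virgin replicate 3 to 0.11, from 0.03, and limma-voom called 47.6% of its genes higher, against 33.5%. Depth limits genes under about 1 CPM, where 1 Virgin library can decide a fold change.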

Other observations

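Of 19 hormone and nuclear receptor genes, 0 were called by edgeR with all 12 libraries, beside 1.32% of all genes. Without Lactating replicate 3, 3 of 21 passed, beside 3.26% of all genes in that fit. Nr1h3, the oxysterol receptor LXR-alpha, had 59.8, 63.1 and 71.3 CPM in the Pregnant libraries, against 13.1, 25.7 and 11.3 CPM in the Virgin libraries (adjusted p = 0.290). Rxra, the partner of LXR and PPAR, had 43.1, 33.0 and 48.6 CPM in the Pregnant libraries, against 15.1, 8.72 and 15.4 CPM in the Virgin libraries (adjusted p = 0.178). Pparg, the fatty acid receptor that drives Cd36, had 3.45, 2.41 and 8.65 CPM in the Pregnant libraries, against 20.4, 15.6 and 27.4 CPM in the Virgin libraries (adjusted p = 0.0615). All 3 had no overlap between the stages, Nr1h3 and Rxra upward and Pparg downward, and they are the 3 that passed in that fit. They were chosen after their values were seen.

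Pattern recognition receptors had a single call. Of 21 Toll-like receptor and sensor genes, only the inflammasome sensor gene Nlrp3 was called, with 63.3, 41.3 and 87.6 CPM in the Pregnant libraries, against 145, 239 and 222 CPM in the Virgin libraries (log2 fold change -1.65 ± 0.32, edgeR adjusted p = 0.0318, reaching 0.139 (Nlrp3, without Pregnant replicate 2) without 1 library). The list had a median log2 fold change of -0.65, and 8 members had no overlap and were lower, against 10.7% of all genes. The 1 call is 4.76% of the list, beside 1.32% of all genes. Tlr7, a sensor of single-stranded RNA, had 96.5, 109 and 158 CPM in Pregnant and 335, 523 and 240.3 CPM in Virgin libraries (adjusted p = 0.0549) and passed without Lactating replicate 3, as did Tlr2 and Cd14. Interferon-stimulated genes had a median of 0.01, and 1 of 46 fell (2.17%, beside 1.32% of all genes). Irf1, a transcription factor also induced by NF-kB, had 123, 92.9 and 85.0 CPM in Pregnant and 163, 198 and 296 CPM in Virgin libraries (log2 fold change -1.13 ± 0.24, edgeR adjusted p = 0.0430). Its edgeR adjusted p reached 0.203 (Irf1, without Pregnant replicate 2) without 1 library.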
